A study of Mus musculus with 12 samples.

Results

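Complement genes were followed in mouse bone marrow-derived macrophages: the 3 chains of C1q (C1qa, C1qb, C1qc), properdin (Cfp), C3, factor B (Cfb), the receptors C3ar1 and C5ar1, and the C1 inhibitor Serping1. These 9 genes were taken by symbol from a count table of 54446 genes, and all 9 passed the filter on low counts, which 13773 genes passed. RNA sequencing covered 12 libraries in 4 labelled groups of 3. The groups were Nlrc3 knockout (KO) cells treated with lipopolysaccharide (LPS, a bacterial cell-wall component) for 12 hours, wild-type (WT) cells treated with LPS for 12 hours, KO cells in medium and WT cells in medium. The LPS dose is not given in the sources used here. All mice carried the floxed Nlrc3 allele. The KO mice also carried Cre driven by the LysM promoter, which is active in myeloid cells, and the WT mice were Cre-negative. Marrow from femurs and tibias was grown with macrophage colony-stimulating factor. The labels do not say that the 3 libraries of a group came from separate animals. Xist, a transcript of female cells, separated libraries within 3 of the 4 groups at 20 counts per 1000000 (CPM). Those 3 groups were therefore not repeats of 1 animal, whereas all KO-labelled medium libraries lay below that level. The p-values here cover the scatter among the libraries of a group, which may in part be technical. In the sample codes of the labels, the first and second WT LPS libraries share a number with the second and the third WT medium libraries, in that order, and no number is shared otherwise. The labels do not say what the number marks. The deviations of these libraries from their group means correlated across the genes tested, at 0.63 and 0.47 for the 2 pairs. The second WT LPS library also correlated at 0.51 with the first WT medium library, with which it shares no number. The correlations therefore do not show that a shared number marks a pair. The tests treat all libraries as separate. A fit with the 2 pairs that share a number as a term was a choice made after seeing the data. Its values stand beside the results on members whose call they change.

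Complement is a protease cascade that tags microbes and debris for uptake and releases peptides that call in leukocytes. C1q recognises bound antibody and dying cells and starts the classical pathway, C3 is the central component that all pathways cleave, and factor B with properdin builds and stabilises the C3-cleaving enzyme of the alternative pathway. Most plasma complement comes from the liver, whereas macrophages are a known source of C1q and properdin and carry receptors for the C3a and C5a peptides.

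The targeted gene went against the label of the KO-labelled LPS libraries. Nlrc3, which encodes a NOD-like receptor, stood at 15.6, 8.29 and 6.04 CPM, counts scaled to a library total of 1000000, in the KO-labelled LPS libraries, against 0.796, 4.39 and 1.40 CPM in WT LPS. It stood at 0.996, 0.850 and 0.876 CPM in the KO-labelled medium libraries, against 9.89, 13.6 and 10.4 CPM in WT medium. Nlrc3 was also called lower in WT LPS than in WT medium, at a log2 fold change of −1.89 ± 0.53 (SE; edgeR adjusted p = 0.0268). It was not called between the KO-labelled medium libraries and WT LPS (−0.94 ± 0.55, adjusted p = 0.950). Nor was it between the KO-labelled LPS libraries and WT medium (−0.12 ± 0.50, adjusted p = 0.981). A low level of Nlrc3 alone therefore does not mark a library as KO. Genes of the LPS response went against the LPS label in all 6 KO libraries. The summed level of 12 LPS response genes, such as Nos2, Il6 and Acod1, was 235 to 390 CPM in the KO-labelled LPS libraries, 10682 to 24428.8 CPM in WT LPS, 21044 to 23694.7 CPM in the KO-labelled medium libraries and 404 to 832 CPM in WT medium. The KO libraries are named by their labels throughout, and every direction given is that of the labels. All 11 macrophage markers examined passed the filter. Their summed level was 22206.5 to 35297 CPM in the KO-labelled LPS libraries, 13515 to 20196 CPM in WT LPS, 10903 to 13864 CPM in the KO-labelled medium libraries and 33360.2 to 36910 CPM in WT medium, so that in CPM the KO-labelled LPS libraries lay above WT LPS and the KO-labelled medium libraries below WT medium, without overlap. Library totals were 13082947 to 20960505 counts, and 3 counts corresponded to 0.143 to 0.229 CPM.

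The levels in CPM are scaled to the library total. The fold changes were fitted with TMM factors, which correct for differences in RNA composition between libraries and here ranged from 1.205 to 1.24 in the KO-labelled LPS libraries, 0.765 to 1.02 in WT LPS, 0.702 to 0.791 in the KO-labelled medium libraries and 1.10 to 1.46 in WT medium. Scaling by library total alone moved the median log2 fold change of all genes to 0.57 (KO-labelled LPS against WT LPS), −0.85 (KO-labelled medium against WT medium), −0.64 (WT LPS against WT medium) and 0.78 (KO-labelled LPS against KO-labelled medium), where TMM gave 0.06, −0.02, −0.06 and 0.04. A CPM difference can point another way than the fitted fold change, which is relative to the bulk of genes.

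The promoter windows of 3 members are shown: C1qb and C1qc, neighbours whose profiles were among the closest of the members, and C3, one of the most variable. Each runs from 250 bases before to 50 bases after the gene's start, 5′ to 3′ in the direction of the gene, from RefSeq on build GRCm38.p6; 6 of the 9 members had such a window of 300 bases. All 9 genes lie on the minus strand. Capitals mark matches to a set of 5 motifs searched on both strands: NF-kB (by name), the ISRE core GAAANNGAAA, the GAS element TTCNNNGAA, the PU.1 core GAGGAA and the C/EBP motif TTGCNNAA.
C1qb, chr4:136886151-136886450, minus strand, PU.1 core in capitals: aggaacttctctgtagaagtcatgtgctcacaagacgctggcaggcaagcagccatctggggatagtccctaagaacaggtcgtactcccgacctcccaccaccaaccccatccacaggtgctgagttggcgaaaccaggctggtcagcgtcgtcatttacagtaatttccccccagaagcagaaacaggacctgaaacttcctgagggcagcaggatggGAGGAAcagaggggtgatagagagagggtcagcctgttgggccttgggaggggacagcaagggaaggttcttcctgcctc
C1qc, chr4:136892865-136893164, minus strand, PU.1 core on the opposite strand and NF-kB in capitals: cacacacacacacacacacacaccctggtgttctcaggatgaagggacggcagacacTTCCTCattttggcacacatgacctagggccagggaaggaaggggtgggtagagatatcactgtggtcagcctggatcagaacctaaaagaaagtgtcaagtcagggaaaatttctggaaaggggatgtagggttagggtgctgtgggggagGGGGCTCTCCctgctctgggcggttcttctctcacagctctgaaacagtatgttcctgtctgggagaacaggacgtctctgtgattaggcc
C3, chr17:57228087-57228386, minus strand, C/EBP in capitals: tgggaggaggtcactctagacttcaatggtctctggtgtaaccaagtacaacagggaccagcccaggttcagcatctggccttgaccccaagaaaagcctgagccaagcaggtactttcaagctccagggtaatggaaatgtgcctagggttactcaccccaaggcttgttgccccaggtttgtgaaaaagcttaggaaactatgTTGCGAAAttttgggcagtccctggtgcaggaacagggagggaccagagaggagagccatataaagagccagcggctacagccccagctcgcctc
Among 32851 RefSeq windows of the same length, 5.8% held the NF-kB motif, 3.44% the ISRE core, 8.3% the GAS element, 28.3% the PU.1 core and 10.8% the C/EBP motif. The first base of the match lay at −30 from the start in C1qb and at −45 in C3. In C1qc the NF-kB match began at −41 and the PU.1 core at −193. The Cfp window held 2 PU.1 cores on the opposite strand, 7 and 23 bases after the start, and the C3ar1 and C5ar1 windows held none of the 5 motifs. No match says only that these letters are not in the window.

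Transcripts of the C1q chains were the most abundant of the 9 members. In FPKM, fragments scaled to gene length and library total and used here wherever different genes are compared, C1qb averaged 2770 ± 677 in the KO-labelled LPS libraries, 1542 ± 432 in WT LPS, 1560 ± 162 in the KO-labelled medium libraries and 2048 ± 213 in WT medium (SD, n = 3 each), above every other member in each group. C1qa came next and C1qc after it in all 4 groups, and their ranges overlapped in each. Below them stood Cfp, C3ar1, C5ar1 and C3, whose order changed between groups. Cfp ranked above C3ar1 in the KO-labelled LPS libraries, at 453 ± 139 against 243 ± 19.6 FPKM without overlap, while the ranges of these genes overlapped in the other 3 groups. Serping1 and Cfb were lowest, at means of 0.171 to 4.23 FPKM for Cfb and 1.81 to 4.05 FPKM for Serping1.

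**Figure D1:**
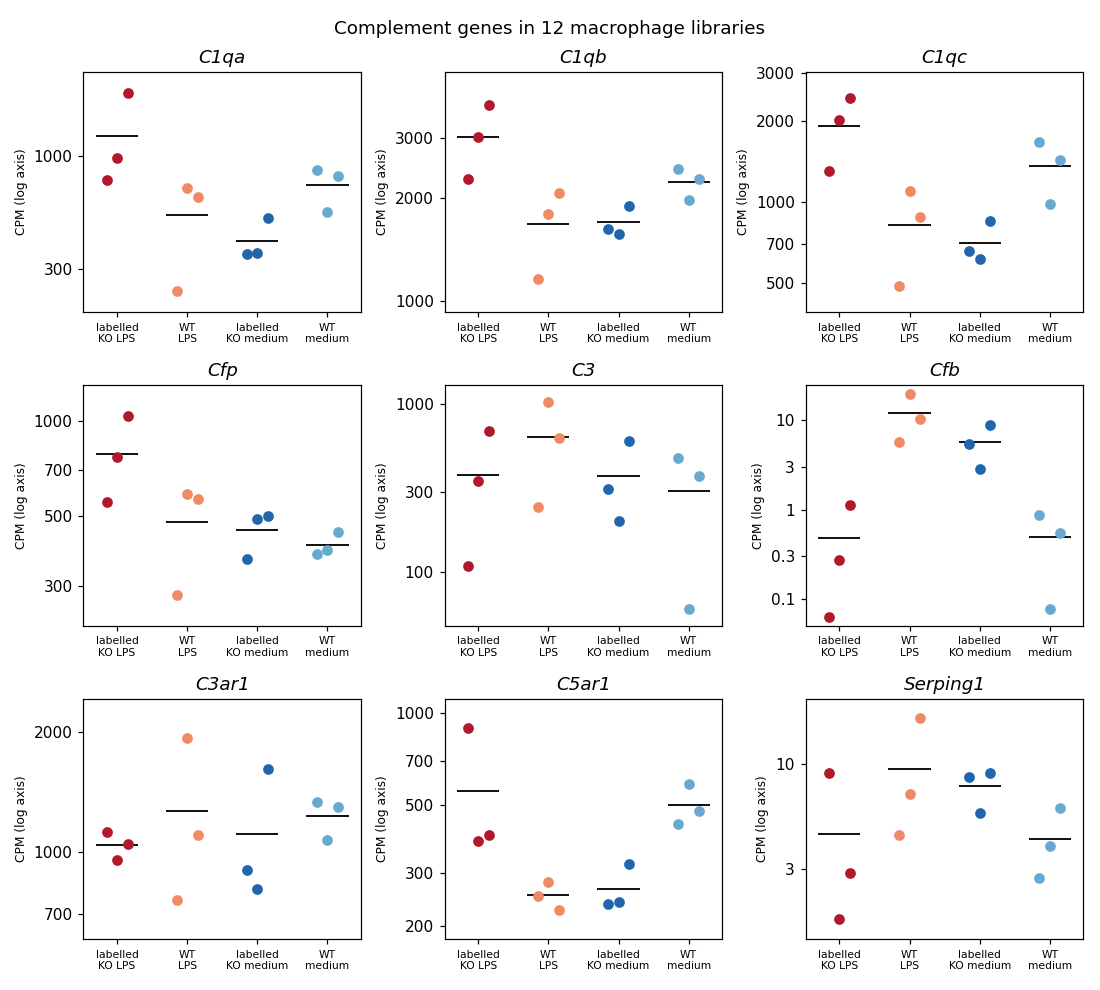
Level of the 9 complement genes in each of the 12 libraries, in CPM of the library total on a log axis, by labelled group; points are libraries and bars are group means. Cfb is at 5.77 to 19.7 CPM in WT LPS and 2.83 to 8.90 CPM in the KO-labelled medium libraries, above all 6 libraries of the other groups.

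The 3 chains of C1q, encoded side by side on chromosome 4 (C1qa at chr4:136895917-136898803, C1qc at chr4:136889804-136893065 and C1qb at chr4:136880129-136886187, GRCm38), assemble into 1 recognition protein. C1qa stood at 779, 983 and 1962 CPM in the KO-labelled LPS libraries, 238, 710 and 648 CPM in WT LPS, 352, 355 and 515 CPM in the KO-labelled medium libraries and 859, 550 and 806 CPM in WT medium. In CPM the KO-labelled LPS libraries lay above WT LPS, and the KO-labelled medium libraries lay below WT medium, without overlap. C1qb stood at 2272, 3023 and 3746 CPM in the KO-labelled LPS libraries, 1160, 1798 and 2075 CPM in WT LPS, 1628, 1566 and 1897 CPM in the KO-labelled medium libraries and 2430, 1975 and 2281 CPM in WT medium. C1qc stood at 1297, 2015 and 2423 CPM in the KO-labelled LPS libraries, 489, 1101 and 876 CPM in WT LPS, 657, 614 and 848 CPM in the KO-labelled medium libraries and 1667, 985 and 1434 CPM in WT medium. In CPM, both genes had the pattern of C1qa: the KO-labelled LPS libraries lay above WT LPS and above the KO-labelled medium libraries, which in turn lay below WT medium, each without overlap. The summed macrophage markers had these same differences in CPM. They also lay higher in WT medium (33360.2 to 36910 CPM) than in WT LPS (13515 to 20196 CPM), where the ranges of all 3 chains overlapped. With TMM factors, the median log2 fold change of the 11 markers was −0.20 for KO-labelled LPS libraries against WT LPS. It was 0.21 for KO-labelled medium against WT medium, 0.29 for WT LPS against WT medium and −0.08 for KO-labelled LPS against KO-labelled medium. The part of the markers in the C1q levels was not tested.

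With TMM factors, none of the 3 chains passed the test in any comparison (edgeR quasi-likelihood test, Benjamini-Hochberg adjustment over 13773 genes). For KO-labelled LPS libraries against WT LPS, the log2 fold change was 0.75 ± 0.40 for C1qa (SE; adjusted p = 0.193), 0.34 ± 0.28 for C1qb (adjusted p = 0.414) and 0.74 ± 0.31 for C1qc (adjusted p = 0.101). The 95% interval for C1qc was 0.07 to 1.42. For KO-labelled medium libraries against WT medium the values were −0.03 ± 0.40, 0.43 ± 0.28 and −0.11 ± 0.31 for C1qa, C1qb and C1qc, with adjusted p of 0.288 to 0.971. Scaling by library total alone gave C1qb 0.85 (adjusted p = 0.0364) and C1qc 1.22 (adjusted p = 0.0214) between the KO-labelled LPS libraries and WT LPS, and C1qb −0.39 with the opposite sign and C1qc −0.95 (adjusted p = 0.0426) between the KO-labelled medium libraries and WT medium. For KO-labelled LPS libraries against KO-labelled medium, C1qa was 0.87 ± 0.40 (adjusted p = 0.119), C1qb 0.09 ± 0.28 and C1qc 0.70 ± 0.31 (adjusted p = 0.107) with TMM, and all 3 chains passed with library total alone, at 1.61, 0.83 and 1.44. Without the first KO-labelled LPS library, C1qc passed with TMM too, at 0.95 (adjusted p = 0.0387) against WT LPS and 0.91 (adjusted p = 0.0394) against the KO-labelled medium libraries. In WT LPS against WT medium, C1qa was 0.10 ± 0.40, C1qb 0.18 ± 0.28 and C1qc −0.15 ± 0.31 (adjusted p of 0.717 to 0.895), and with library total alone C1qa turned to −0.47 and C1qb to −0.41.

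The balance of the chains can be read within a library, where library scaling cancels. C1qb made up 56.7% ± 3.86 of the summed C1q FPKM in the KO-labelled LPS libraries, 63.2% ± 6.04 in WT LPS, 67.5% ± 2.06 in the KO-labelled medium libraries and 59.5% ± 3.58 in WT medium (SD, n = 3 each). C1qa made up 23.3% ± 4.72, 19.7% ± 4.48, 16.8% ± 1.53 and 20.3% ± 1.58 in the same groups, and C1qc 20.03% ± 1.61, 17.1% ± 2.30, 15.7% ± 0.63 and 20.1% ± 2.10. The share of C1qb was largest in the KO-labelled medium libraries and smallest in the KO-labelled LPS libraries, and no test of the shares was run. In CPM, without division by length, the C1qb share was 49.5%, 56.3%, 60.6% and 51.9% in the same groups, in the same order.

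**Figure D2:**
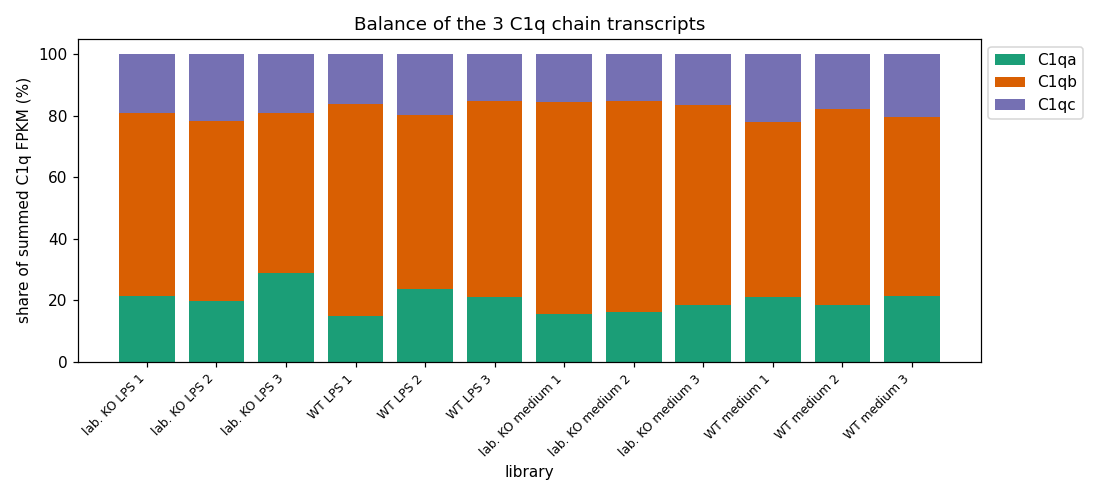
Share of C1qa, C1qb and C1qc in the summed FPKM of the 3 chains, in percent, for each of the 12 libraries by labelled group. C1qb is the largest share in every library and averages 67.5% in the KO-labelled medium libraries, against 59.5% in WT medium.

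Cfp encodes properdin, which prolongs the life of the alternative pathway's C3-cleaving enzyme (chrX:20925454-20931555). Its level was 554, 768 and 1037 CPM in the KO-labelled LPS libraries, 281, 588 and 565 CPM in WT LPS, 366, 490.3 and 499 CPM in the KO-labelled medium libraries and 379.96, 391 and 445 CPM in WT medium. The KO-labelled medium libraries overlapped with WT medium in CPM, with 2 of 3 above. Cfp passed the test in that comparison, with a log2 fold change of 0.98 ± 0.31 (SE; 95% interval 0.30 to 1.65; edgeR adjusted p = 0.0363). The call rested on the TMM scaling, since library total alone gave 0.16 (adjusted p = 0.711). Without the filter on low counts the adjusted p was 0.125. It was also lost without the first (0.124) or the third (0.108) WT medium library, and without the first (0.0685), second (0.137) or the third (0.0865) KO-labelled medium library. Cfp was 0.80 ± 0.31 in WT LPS against WT medium (adjusted p = 0.0937), 0.23 ± 0.31 in the KO-labelled LPS libraries against WT LPS (0.623) and 0.05 ± 0.31 in the KO-labelled LPS libraries against KO-labelled medium (0.908). None of these passed.

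C3, whose cleavage products coat targets and signal to leukocytes (chr17:57203970-57228136), varied widely within every group. It stood at 109, 348 and 687 CPM in the KO-labelled LPS libraries, 244, 1032 and 630 CPM in WT LPS, 313, 202 and 603 CPM in the KO-labelled medium libraries and 481.1, 60.5 and 375 CPM in WT medium. All groups overlapped, and the highest library of a group was 2.99 to 7.95 times its lowest. The log2 fold change was −1.18 ± 0.73 for KO-labelled LPS libraries against WT LPS, 1.16 ± 0.73 for KO-labelled medium against WT medium, 1.66 ± 0.74 for WT LPS against WT medium and −0.68 ± 0.73 for KO-labelled LPS against KO-labelled medium, and none passed (edgeR adjusted p of 0.264, 0.266, 0.147 and 0.497). The last of these turned to 0.03 with library total alone. Leaving out 1 library at a time moved the 4 values to −1.91 to −0.74, 0.63 to 1.67, 1.16 to 2.17 and −1.41 to −0.25, in that order, and none passed (adjusted p of 0.114 or above). The value nearest 0 came without the first KO-labelled LPS library in the first and the last comparison (−0.74 and −0.25), and without the second WT medium library in the second and the third (0.63 and 1.16). Without the filter on low counts, WT LPS against WT medium passed at 1.57 (adjusted p = 0.0340).

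The level of C3 was set against that of Xist, the X-inactivation transcript of female cells. Xist exceeded 20 CPM in 5 libraries (the second and the third KO-labelled LPS, the second WT LPS, and the first and the third WT medium) and lay below it in the other 7, among them all 3 KO-labelled medium libraries. In each of the 3 groups that held both kinds, C3 was higher in every library with Xist above 20 CPM than in those below it. The same split held for C1qa, C1qc and Cfb among the members and for 27.3% of the 13773 genes tested, while 13.3% had the opposite split. Adgre1 and Csf1r, the only macrophage markers examined for it singly, had the split of C3. The summed level of the 11 macrophage markers had it in the KO-labelled LPS libraries (35297 and 23545 CPM with Xist, 22206.5 CPM without). In WT LPS these markers summed to 18639 CPM with Xist against 20196 and 13515 CPM without. In WT medium they summed to 33360.2 and 36910 CPM with Xist against 35879 CPM without, so neither WT group had the split. With this split as a term in the edgeR fit, C3 passed in all 4 comparisons: −2.10 ± 0.53 for KO-labelled LPS libraries against WT LPS (adjusted p = 0.0120), 2.76 ± 0.61 for KO-labelled medium against WT medium (0.0073), 2.63 ± 0.54 for WT LPS against WT medium (0.0049) and −2.23 ± 0.59 for KO-labelled LPS against KO-labelled medium (0.0169). C3 itself followed the split, so the term takes up part of its scatter within groups. For the KO-labelled medium libraries, all below 20 CPM of Xist, the term rests on the other 3 groups. Adgre1, which encodes the macrophage surface protein F4/80, stood at 1562 and 1808 CPM in the KO-labelled LPS libraries with Xist against 558 CPM in the one without. It stood at 1771 CPM in the WT LPS library with Xist against 411 and 623 CPM in those without, and at 1543 and 1634 CPM in WT medium with Xist against 389 CPM without. In the KO-labelled medium libraries, all below 20 CPM of Xist, C3 still ranged from 202 to 603 CPM. Sex and any other difference between these libraries cannot be told apart.

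**Figure D3:**
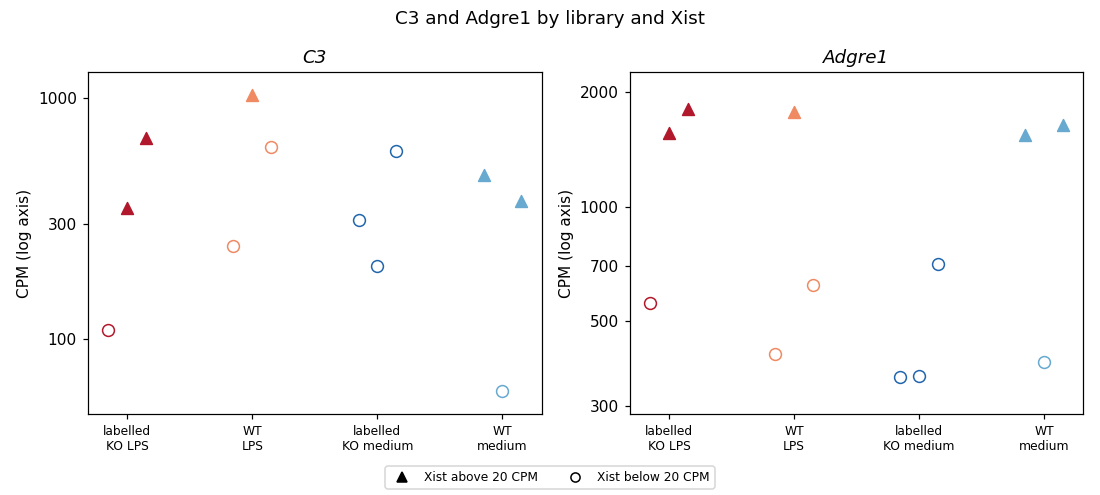
Levels of C3 and of the macrophage marker Adgre1 in CPM (log axes) in each of the 12 libraries by labelled group; triangles are libraries with Xist above 20 CPM and open circles those below. In the 3 groups with both kinds the triangles lie above the circles; for C3 in WT medium the values are 481.1 and 375 CPM against 60.5 CPM.

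Cfb, which encodes the protease of the alternative pathway (chr17:34856374-34862518), was the only member that passed the test in all 4 pairwise comparisons. It was counted 1, 5 and 21 times in the KO-labelled LPS libraries, 87, 412 and 172 times in WT LPS, 97, 40 and 132 times in the KO-labelled medium libraries, and 17, 1 and 9 times in WT medium. These are 0.0631, 0.273 and 1.11 CPM in the KO-labelled LPS libraries, 5.77, 19.7 and 10.5 CPM in WT LPS, 5.37, 2.83 and 8.90 CPM in the KO-labelled medium libraries, and 0.871, 0.0764 and 0.548 CPM in WT medium. WT LPS and the KO-labelled medium libraries were high, and both other groups were low, without overlap. Cfb was lower in the KO-labelled LPS libraries than in WT LPS, by a log2 fold change of −5.02 ± 0.85 (SE; 95% interval −6.88 to −3.17; edgeR adjusted p = 0.0018). It was higher in the KO-labelled medium libraries than in WT medium, at 4.29 ± 0.83 (adjusted p = 0.0034), and higher in WT LPS than in WT medium, at 5.08 ± 0.86 (adjusted p = 0.0020). It was lower in the KO-labelled LPS libraries than in the KO-labelled medium libraries, at −4.23 ± 0.83 (adjusted p = 0.0031).

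The calls for Cfb held under each alternative run, with adjusted p of 0.0199 or below, while its fold change moved with single libraries. Without the third KO-labelled LPS library, the log2 fold change was −6.48 against WT LPS and −5.68 against the KO-labelled medium libraries, and without the first it was −4.54 and −3.74. Leaving out any 1 library gave 3.81 to 4.93 for KO-labelled medium libraries against WT medium and 4.64 to 5.73 for WT LPS against WT medium. The level of Cfb is uncertain for another reason: the protein-coding gene Gm20547, annotated on the same strand, shares 2246 of the 2825 exonic bases of Cfb (79.5%) and 1656 of the 3872 of its neighbour C2 (42.8%). Gm20547 had 0 counts in all 12 libraries, and how reads in the shared exons were assigned is not given in the sources used here. No other member shares exonic bases with another annotated gene.

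C3ar1 and C5ar1 encode the receptors for the C3a and C5a peptides (chr6:122847138-122856161 and chr7:16246743-16259540). C3ar1 stood at 1127, 958 and 1050 CPM in the KO-labelled LPS libraries, 760, 1933 and 1108 CPM in WT LPS, 905, 812 and 1614 CPM in the KO-labelled medium libraries and 1338, 1071 and 1296 CPM in WT medium. The 4 groups overlapped, and the highest value lay in the second WT LPS library. Its log2 fold change was −0.73 ± 0.31 for KO-labelled LPS libraries against WT LPS (edgeR adjusted p = 0.105), 0.65 ± 0.31 for KO-labelled medium against WT medium (0.139, turning to −0.15 with library total alone), 0.58 ± 0.31 for WT LPS against WT medium (0.223) and −0.81 ± 0.31 for KO-labelled LPS against KO-labelled medium (0.0672), and none passed. DESeq2 called the last, at −0.82 (adjusted p = 0.0266).

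C5ar1 stood at 893, 382 and 398 CPM in the KO-labelled LPS libraries, 251, 280.3 and 227 CPM in WT LPS, 237, 239.6 and 319 CPM in the KO-labelled medium libraries and 433, 588 and 479 CPM in WT medium. In CPM the KO-labelled LPS libraries and WT medium were high, and WT LPS and the KO-labelled medium libraries were low, and no high library overlapped with a low one. The summed macrophage markers split the groups in the same way in CPM. Their median fold changes with TMM factors, given above, had signs opposite to the differences of these sums. The part of the markers in the level of C5ar1 was not tested. With TMM factors the log2 fold change was 0.64 ± 0.35 for KO-labelled LPS libraries against WT LPS (edgeR adjusted p = 0.210), −0.13 ± 0.35 for KO-labelled medium against WT medium (0.814), −0.42 ± 0.35 for WT LPS against WT medium (0.451) and 0.34 ± 0.35 for KO-labelled LPS against KO-labelled medium (0.481), and none passed. With library total alone C5ar1 passed in all 4, at 1.14, −0.92, −0.98 and 1.07, beside the shift of all genes given above. With the Xist split as a term, C5ar1 passed between the KO-labelled LPS libraries and WT LPS, at 0.74 ± 0.24 (adjusted p = 0.0342).

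Serping1 encodes the C1 inhibitor, which blocks the proteases of the classical pathway (chr2:84765387-84775444). It was a low gene here, at 8.96, 1.69 and 2.86 CPM in the KO-labelled LPS libraries, 4.45, 7.06 and 16.7 CPM in WT LPS, 8.58, 5.67 and 8.96 CPM in the KO-labelled medium libraries and 2.72, 3.90 and 6.03 CPM in WT medium. The groups overlapped, and the first KO-labelled LPS library stood apart from the other 2 of its group. The log2 fold change was −1.58 ± 0.63 for KO-labelled LPS libraries against WT LPS (edgeR adjusted p = 0.0891), 1.71 ± 0.64 for KO-labelled medium against WT medium (0.0670), 1.78 ± 0.64 for WT LPS against WT medium (0.0734) and −1.51 ± 0.63 for KO-labelled LPS against KO-labelled medium (0.0902). None passed, whereas DESeq2 called all 4 (adjusted p of 0.0403, 0.0293, 0.0273 and 0.0462). EdgeR without the filter on low counts also called all 4 (adjusted p of 0.0403, 0.0271, 0.0253 and 0.0473). With only the groups compared, edgeR called KO-labelled medium against WT medium, at 1.70 (adjusted p = 0.0150). Without the first KO-labelled LPS library, Serping1 passed in edgeR too, at −2.58 against WT LPS (adjusted p = 0.0104) and −2.51 against the KO-labelled medium libraries (0.0094). The values moved with other libraries too. Without the third WT LPS library, Serping1 came to −0.79 in the KO-labelled LPS libraries against WT LPS (adjusted p = 0.445) and 0.95 in WT LPS against WT medium (0.411). Without the second KO-labelled LPS library it came to −1.18 (0.247) against WT LPS and −1.11 (0.252) against KO-labelled medium. For KO-labelled medium libraries against WT medium it stayed at 1.45 to 1.93 (0.0999 to 0.203) with any 1 library left out.

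Markers of stromal cells and fibroblasts had median fold changes of the same sign as Serping1 in all 4 comparisons. So did the LPS response genes, 20 interferon-stimulated genes and the macrophage markers. In the KO-labelled LPS libraries against WT LPS, these 3 lists had medians of −6.16, −4.58 and −0.20. The shared sign is therefore not particular to stromal markers. The summed level of the 15 stromal and fibroblast markers was 133 to 228 CPM in the KO-labelled LPS libraries, 147 to 529 CPM in WT LPS, 100.5 to 292 CPM in the KO-labelled medium libraries and 147 to 289 CPM in WT medium. In the KO-labelled LPS libraries against WT LPS, 4 of the 15 fell and none rose, where 24.1% of all genes were called and 13.7% fell, and the median log2 fold change was −1.78. In KO-labelled medium libraries against WT medium 1 of the 15 rose (26.3% of all genes called), with a median of 0.77. In WT LPS against WT medium 1 rose (18.3%), with a median of 1.54, and in the KO-labelled LPS libraries against KO-labelled medium 1 fell (30.4%), with a median of −1.09. The collagen gene Col1a1 stood at 9.82 to 19.4 CPM in the KO-labelled LPS libraries and 6.10 to 89.02 CPM in WT LPS, and no marker of the list was at 0 in any library. The part of these cells in the level of Serping1 was not tested. In bulk RNA, fewer cells of a type and less RNA per cell cannot be told apart.

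Markers of other marrow cells also differed between libraries. In the KO-labelled LPS libraries against WT LPS, where 24.1% of all genes were called, 4 of 6 tested megakaryocyte and platelet markers rose, as did 3 of 7 B cell markers and 2 of 6 dendritic cell markers. Of 13 neutrophil markers 4 rose and 1 fell, and of 11 macrophage markers 1 rose and 3 fell. The first KO-labelled LPS library, without which Serping1 and C1qc passed, stood apart from the other 2 of its group in the summed level of neutrophil markers (1366 against 6277 and 7711 CPM) and of B cell markers (57.1 against 315 and 418 CPM). Neutrophil markers summed to 1879 to 6644 CPM in WT LPS, 2135 to 4216 CPM in the KO-labelled medium libraries and 1071 to 1604 CPM in WT medium. The part of these cells in the levels of the members was not tested.

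**Figure D4:**
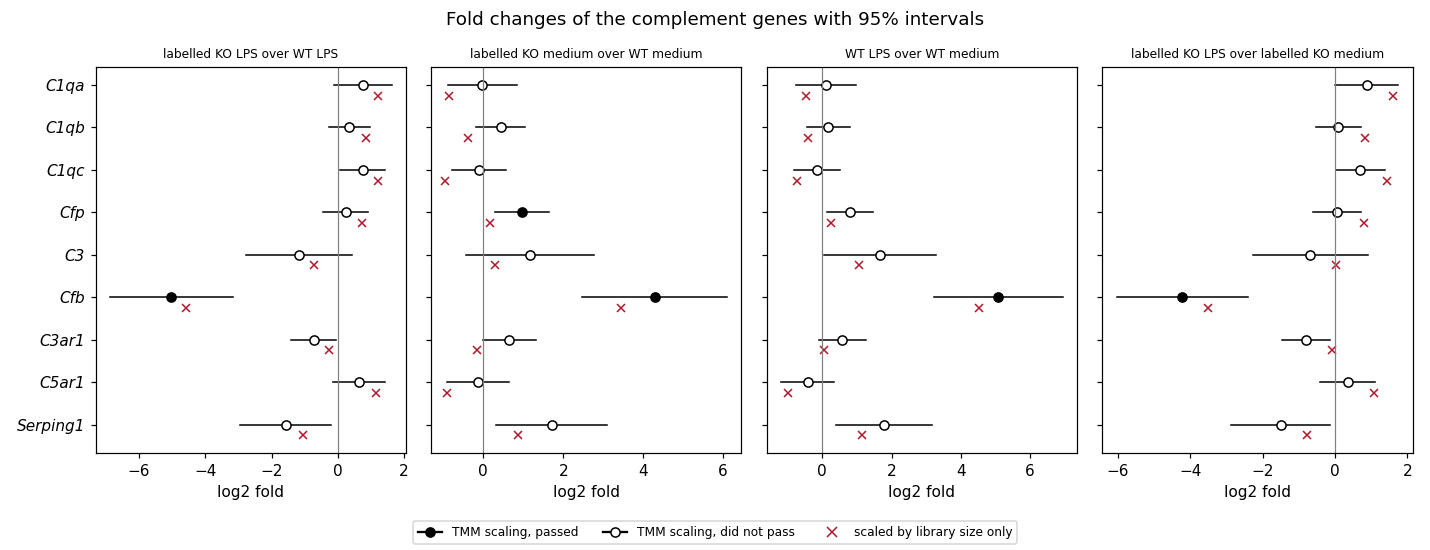
Log2 fold change of the 9 complement genes in the 4 pairwise comparisons (edgeR with TMM factors); circles are estimates (filled where adjusted p is under 0.05), bars 95% intervals and crosses the estimates scaled by library total alone. Cfb lies at −5.02 and −4.23 in both comparisons with the KO-labelled LPS libraries and at 4.29 and 5.08 in both against WT medium, and the other members lie within −1.58 to 1.78.

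Counted over the 9 members, the KO-labelled LPS libraries against WT LPS gave 1 call, Cfb (lower), where 24.1% of all genes tested were called, 10.4% higher and 13.7% lower. The median log2 fold change of the members was 0.23, against 0.06 for all genes. The KO-labelled medium libraries against WT medium gave 2 calls, Cfb and Cfp, both higher, where 26.3% of genes were called, 14.0% higher and 12.3% lower; the medians were 0.65 for the members and −0.02 for all genes. WT LPS against WT medium gave 1 call, Cfb (higher), where 18.3% of genes were called, 11.9% higher and 6.46% lower, with medians of 0.58 and −0.06. The KO-labelled LPS libraries against KO-labelled medium gave 1 call, Cfb (lower), where 30.4% of genes were called, 15.1% higher and 15.3% lower, with medians of 0.05 and 0.04. With library total alone, the calls over all genes split otherwise: 3487 higher and 1194 lower against 1435 and 1889 with TMM for KO-labelled LPS libraries against WT LPS, 1070 and 5574 against 1932 and 1688 for KO-labelled medium against WT medium, 1033 and 3200 against 1636 and 890 for WT LPS against WT medium, and 5317 and 1177 against 2082 and 2104 for KO-labelled LPS against KO-labelled medium. These comparisons share libraries, so they are not independent of each other.

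The interaction asks whether the labelled LPS effect in the KO libraries differed from that in the WT libraries. It was called for 3 members, all with a lower LPS effect in the libraries labelled KO, where 41.1% of all genes were called, 20.5% higher and 20.6% lower. Cfb differed by −9.31 ± 1.19 on the log2 scale (edgeR adjusted p = 9.8e-05), Serping1 by −3.29 ± 0.90 (0.0117) and C3ar1 by −1.39 ± 0.44 (0.0240). With library total alone Serping1 came to −1.94 (adjusted p = 0.0774) and C3ar1 to −0.12 (0.843), while the median of all genes was 1.43, against 0.11 with TMM. That scaling called C1qa (2.08), C1qb (1.24), C1qc (2.17) and C5ar1 (2.06) as higher. Serping1 kept its call when any 1 library was left out, at −4.28 to −2.43. With the 2 WT pairs that share a code number as a term, which leaves out the WT libraries with no partner, Cfb kept its call at −10.17 (adjusted p = 0.000456). In that fit Serping1 came to −2.24 (0.0782) and C3ar1 to −1.37 (0.0664), neither called, and C3 was called at −2.94 (0.0373). C3ar1 lost it without the filter on low counts (0.0988) and without the third WT LPS (0.0518), second (0.0634) or the third (0.0508) KO-labelled LPS, the third WT medium (0.0564) or the third KO-labelled medium library (0.0795). C3 came to −2.34 ± 1.04 (adjusted p = 0.0910), and passed without the third KO-labelled LPS library, at −3.06 (0.0450), or with the Xist split as a term, at −4.86 ± 0.91 (0.0015). It also passed without the filter on low counts, at −2.21 (0.0163). The remaining members lay between −0.75 and 0.85 with adjusted p of 0.139 or above. Of these, C5ar1 passed with the Xist split as a term, at 1.29 ± 0.37 (edgeR adjusted p = 0.0163).

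Each group labelled KO was also set against the WT group that differs from it in both labels. Between the KO-labelled medium libraries and WT LPS, edgeR called 0% of the 13773 genes (270 had an unadjusted p under 0.05, and DESeq2 called 0), and no member had an unadjusted p under 0.05. Between the KO-labelled LPS libraries and WT medium, edgeR again called 0% (1135 genes had an unadjusted p under 0.05, and DESeq2 called 41), and 1 member, Cfp, had an unadjusted p under 0.05. Cfb differed by −0.79 ± 0.70 between the KO-labelled medium libraries and WT LPS, with a 95% interval of −2.32 to 0.74. A p that misses the threshold does not show that these groups were alike.

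Across the 12 libraries the members did not form 1 profile. On centred log2(CPM + 1) values with TMM factors, Cfb had an SD of 1.56, C3 of 1.18 and Serping1 of 0.912, and the other 6 members had SDs of 0.296 to 0.535. C1qa and C1qc were the closest pair, with a root mean square difference of 0.215, followed by C1qb with Cfp (0.288) and C1qb with C1qc (0.298). C5ar1 and Cfb were farthest apart (1.79). Among 8984 genes with a mean of at least 5 CPM, the closest to Cfb was Helz2 (0.206), then Ctsc (0.303), and the closest to C3 was H2-T24 (0.311), then Il12rb1 (0.323). Serping1 was closest to Igfbp7 (0.244) and Sod3 (0.288). C1qc was closest to Ano10 (0.147) and Osbpl7 (0.174), C1qa to Mdm1 (0.261) and Tnfrsf13b (0.265), and C1qb to Flot2 (0.152) and Emd (0.177). Cfp was closest to Fermt3 (0.275) and Flot2 (0.29988), C3ar1 to Arcn1 (0.202) and Tmem209 (0.204), and C5ar1 to Idh3a (0.1504) and Nutf2 (0.157). A gene that varies little is close to many others, so these distances are read beside the SD.

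Of 49 other complement genes, 26 passed the filter on low counts. Several were at 0: Masp2, Mbl1, Mbl2, C4bp and Susd4 had 0 counts in every library, which allows up to 0.143 to 0.229 CPM per library, and of 7 genes of the terminal pathway, which builds the membrane pore, only C8g was tested. In the KO-labelled LPS libraries against WT LPS, 1 of the 26 rose and 3 fell (24.1% of all genes called), with a median log2 fold change of 0.10. The KO-labelled medium libraries against WT medium had 4 higher and 4 lower (26.3% of all genes called), with a median of 0.28. WT LPS against WT medium had 2 higher and 2 lower (18.3%), with a median of 0.21, and the KO-labelled LPS libraries against KO-labelled medium had 3 higher and 3 lower (30.4%), with a median of −0.12.

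In the interaction 4 were higher and 4 lower (41.1%), with a median of −0.02: Cd93 (5.04), C8g (3.40), C5ar2 (3.34) and Lrp1 (2.15) were higher, and C1ra (−5.68), Scarf1 (−4.27), C1s1 (−2.85) and Cr1l (−1.36) lower. C8g and C1s1 lay below 5 CPM and were named after their values were seen. Group means of C1s1 were 0.826 to 1.95 CPM. The alternatives were not read for single genes here, and 6 to 11 were called with 1 library left out.

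C1ra, Scarf1 and Cd93 passed in all 4 pairwise comparisons. C1ra encodes the C1r protease that C1q activates, has the near-identical copy C1rb, and stood at 8.08, 6.17 and 12.8 CPM in the KO-labelled LPS libraries, 42.7, 35.6 and 37.6 CPM in WT LPS, 50.01, 35.1 and 34.6 CPM in the KO-labelled medium libraries and 11.6, 5.12 and 9.69 CPM in WT medium. Like Cfb, it was high in WT LPS and in the KO-labelled medium libraries, without overlap. Its log2 fold change was −2.63 ± 0.36 for KO-labelled LPS libraries against WT LPS (edgeR adjusted p = 5.3e-04), 3.05 ± 0.37 for KO-labelled medium against WT medium (2.0e-04), 2.78 ± 0.36 for WT LPS against WT medium (4.1e-04) and −2.90 ± 0.36 for KO-labelled LPS against KO-labelled medium (2.6e-04). Scarf1, a scavenger receptor that binds C1q on dying cells, had the same pattern, at 60.6 ± 12.5 CPM in the KO-labelled LPS libraries, 148 ± 6.15 in WT LPS, 165 ± 23.4 in the KO-labelled medium libraries and 54.3 ± 12.1 in WT medium (SD, n = 3 each). Its log2 fold changes were −1.81 ± 0.26, 2.46 ± 0.27, 2.07 ± 0.26 and −2.20 ± 0.26 in the same comparisons (edgeR adjusted p of 1.1e-04 to 6.9e-04).

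Cd93, a surface glycoprotein once named as a C1q receptor, ran the other way. It stood at 192, 670.5 and 545 CPM in the KO-labelled LPS libraries, 37.3, 121 and 33.3 CPM in WT LPS, 45.3, 32.5 and 56.3 CPM in the KO-labelled medium libraries and 754, 118 and 633 CPM in WT medium. The 4 log2 fold changes were 2.45 ± 0.64, −2.59 ± 0.64, −2.39 ± 0.64 and 2.65 ± 0.64 (edgeR adjusted p of 0.0095 to 0.0214). The call between the KO-labelled LPS libraries and WT LPS was lost without the first (adjusted p = 0.0652) or the third (0.0825) WT LPS or the second KO-labelled LPS library (0.0632). The call between WT LPS and WT medium was lost without the first (0.0758) or the third (0.0978) WT LPS or the first (0.0821) or the third (0.0607) WT medium library, when only these 2 groups were fitted (0.0661), and with the WT pairs by code number as a term (0.127).

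C5ar2, the second C5a receptor, stood at 10.8, 11.1 and 11.3 CPM in the KO-labelled LPS libraries, 0.995, 8.25 and 2.07 CPM in WT LPS, 0.885, 1.77 and 2.29 CPM in the KO-labelled medium libraries and 14.2, 9.71 and 16.0 CPM in WT medium. It passed as lower in the KO-labelled medium libraries than in WT medium (−2.18 ± 0.56, edgeR adjusted p = 0.0145) and higher in the KO-labelled LPS libraries than in KO-labelled medium (2.02 ± 0.56, 0.0181). The first call was lost without the first KO-labelled medium library (0.0676), and the second without the first (0.0859) or second (0.0514). As for C5ar1, the KO-labelled LPS libraries and WT medium were above WT LPS and the KO-labelled medium libraries.

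Lrp1, an uptake receptor, and Cr1l, the mouse membrane regulator Crry, each passed in 2 comparisons. Lrp1 was −1.34 ± 0.44 and Cr1l 0.85 ± 0.28 for KO-labelled medium libraries against WT medium, and 1.37 ± 0.44 and −0.88 ± 0.28 for the KO-labelled LPS libraries against KO-labelled medium (edgeR adjusted p of 0.0333 to 0.0430). With library total alone Cr1l came to 0.03 and −0.13, and with the Xist split as a term Lrp1 came to −0.67 and 0.72, none of them called. Cr1l also lost both calls with the Xist term (0.52 with adjusted p = 0.123, and −0.53 with 0.112), without the filter on low counts (0.177 and 0.109) and with the replicate number as a block (0.0674 and 0.0524), and Lrp1 lost the first with that block (0.0512). Leaving out 1 library at a time gave Lrp1 adjusted p of 0.0224 to 0.161 in the first comparison and 0.0260 to 0.113 in the second, and Cr1l 0.0282 to 0.157 and 0.0310 to 0.117. For both genes in the first comparison the call was lost without the first or the third WT medium or the first or second KO-labelled medium library, and Lrp1 lost it without the third too. In the second, both lost it without the second or the third KO-labelled LPS library or the first or second KO-labelled medium, and Lrp1 without the third of these too. Below 5 CPM, Masp1 was called lower in the KO-labelled LPS libraries than in WT LPS, and C2 higher and C8g lower in the KO-labelled medium libraries than in WT medium. These 3 were named after their values were seen, and with 1 library left out at a time their adjusted p reached 0.124, 0.109 and 0.103. C2 lost its call without any 1 of the 6 libraries, C8g without any but the second WT medium and Masp1 without any but the first WT LPS library.

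**Figure D5:**
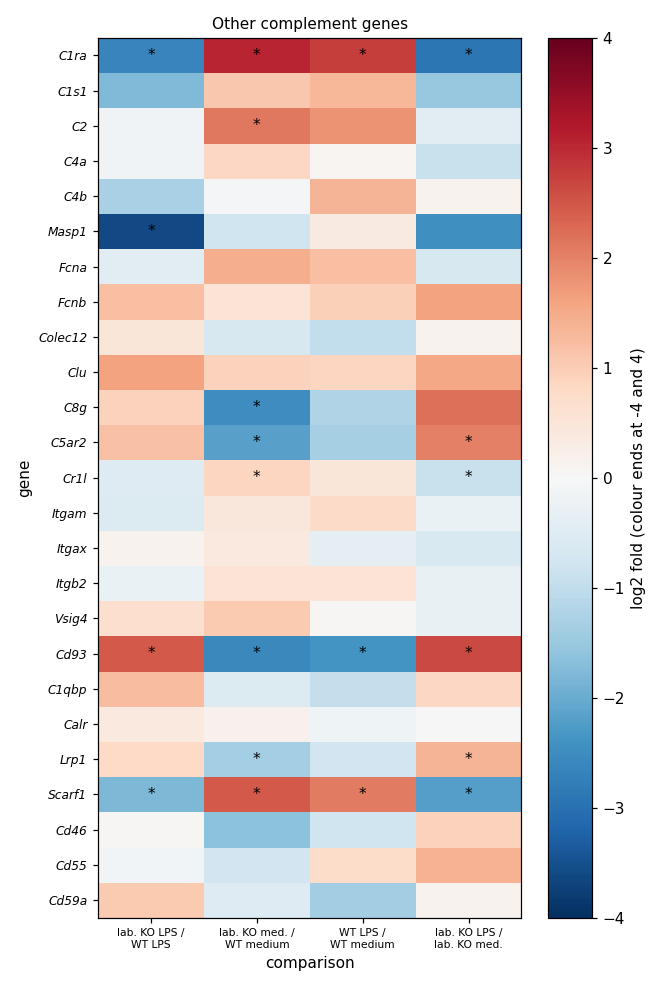
Log2 fold change (edgeR with TMM factors) of the other complement genes reported here that passed the filter, in the 4 pairwise comparisons, as a colour scale; asterisks mark calls at adjusted p under 0.05. C1ra and Scarf1 are low in both comparisons with the KO-labelled LPS libraries on top (−2.63 and −1.81 against WT LPS), and Cd93 is high (2.45).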

How the data were processed

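RNA was sequenced from 12 libraries of bone marrow-derived macrophages, 3 in each of 4 labelled groups. The deposited table gives whole-number counts per gene and FPKM values by the authors; build mm10 comes from the submitters' processing notes, and the aligner, counter and annotation were not given in the sources used here. TruSeq and KAPA Stranded kits are both named and the strand setting is not given. The counts were tested with edgeR 4.0.16 (quasi-likelihood, TMM, low-count filter) in R 4.3.3, in 1 fit of all 4 groups. DESeq2 1.42.0 served as an alternative, and limma 3.58.1 was loaded beside edgeR but gave no test. Calls are Benjamini-Hochberg adjusted p under 0.05 over all genes tested. CPM are counts scaled to a library total of 1000000. The deposited FPKM matched counts divided by library total and a gene length, and served to compare genes. Scripts were tested on simulated data. No 2 libraries of a group agreed within counting noise (chi-square per degree of freedom at least 22.3). Replicate numbers did not pair the libraries. Numbers in the sample codes are shared by 2 pairs of WT LPS and WT medium libraries, which the replicate numbers match otherwise. Their deviations correlated at 0.63 and 0.47. The second WT LPS and first WT medium libraries share no number and correlated at 0.51. Each of these pairs lay on 1 side of 20 CPM of Xist. So did the third WT LPS with the second WT medium library, at −0.0056. A fit of 10 libraries with the pairs that share a number as a term was added after seeing the data. Gene positions come from an annotation of the same build, in which 54409 of 54446 genes matched. The members and lists were chosen with earlier results of these data known. All members were named, with up to 4 other complement genes per direction and comparison that were called at 5 CPM or more in the higher group, by smallest p, and the 2 genes closest to each member. The alternatives tried were DESeq2, library total alone, no filter, only the groups compared, a replicate block, a term for Xist above 20 CPM and leaving out each library. Antisense and near-identical genes (C4a and C4b, C1ra and C1rb, C1s1 and C1s2) are uncertain where counting could split or merge reads. The 3-count floor covers counting error only, and the intervals of fold changes come from the fit across libraries. The counts of other complement genes include 1 called gene that is not reported here.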

Additional observations from a re-analysis of the deposited data

Results flagged for a closer look

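For 3 of the 9 members, the labelled LPS effect in the KO libraries differed from that in the WT libraries by the interaction test of edgeR across all genes. Cfb differed by −9.31 on the log2 scale: its fold change was −4.23 for KO-labelled LPS against KO-labelled medium libraries and 5.08 for WT LPS against WT medium. Serping1 differed by −3.29, with −1.51 in the KO-labelled libraries and 1.78 in WT, and was not called with the WT pairs by code number as a term (−2.24, edgeR adjusted p = 0.0782) or with library total alone. C3ar1 differed by −1.39, with −0.81 in the KO-labelled libraries and 0.58 in WT, and this call was lost with the WT pairs by code number as a term, with library total alone, without the filter on low counts and without any 1 of 5 libraries. The same test called 41.1% of all genes. Nlrc3 went against the label in the KO-labelled LPS libraries, and the LPS response genes went against the LPS label in all KO-labelled libraries.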

How the results depend on the processing

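All 8 calls on members kept their direction under every alternative run, and the 5 for Cfb also stayed called under each. Library total alone called 4, 2 and 5 members for KO-labelled LPS libraries against WT LPS, WT LPS against WT medium and KO-labelled LPS against KO-labelled medium, and 5 in the interaction. DESeq2 called 2, 2 and 3 members in these 3 comparisons, no filter 2, 3 and 2, and the Xist term 3, 2 and 2, with 5 in the interaction. Without 1 library the members called were 1 to 3, 1 to 1, 1 to 3 and, in the interaction, 2 to 3, and 1 to 2 for KO-labelled medium against WT medium. Other complement genes called for KO-labelled LPS against WT LPS were 7 with DESeq2 and 7 with library total alone (2 to 5 without 1 library). For WT LPS against WT medium they were 7, 9, 7 with the Xist term and 2 with only the groups compared (2 to 5). For KO-labelled LPS against KO-labelled medium they were 10 with library total alone (3 to 10), for KO-labelled medium against WT medium 3 to 9, in the interaction 6 to 11, and for KO-labelled LPS against WT medium 1 with DESeq2 and 1 with no filter (0 to 1). The replicate block, though numbers did not pair the libraries (same-number correlations −0.68 to 0.64), kept all 8 member calls and left 4 other complement genes called for KO-labelled medium against WT medium. It sets 2 WT LPS libraries against other WT medium libraries than those with which they share a code number. With the shared numbers as pairs, an alternative chosen after seeing the data that leaves out 2 WT libraries, WT LPS against WT medium called 1 member (Cfb), 2 other complement genes and 1034 of all genes, and the interaction 2 members (Cfb and C3). This fit turned C1qa to −0.17 and C1qb to −0.031 in WT LPS against WT medium and C1qb to 0.12 in the interaction.

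All genes called came to 2185 with only the groups compared for KO-labelled LPS against WT LPS (1810 to 4093 without 1 library), 6644 with library total alone for KO-labelled medium against WT medium (2196 to 4735), 4233 and, with only the groups compared, 1590 for WT LPS against WT medium (1384 to 3042), and 6494 for KO-labelled LPS against KO-labelled medium (2543 to 5095). They came to 3 with no filter for KO-labelled medium against WT LPS (0 to 2), and to 41 with DESeq2 and 99 with no filter for KO-labelled LPS against WT medium (0 to 245). The C1qb share in CPM was 49.5%, 56.3%, 60.6% and 51.9%.

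Signs turned only for folds not called in the report. For KO-labelled medium against WT medium, the Xist term gave C1qa 0.30 and C1qc 0.20, and library total alone C1qb −0.39 and C3ar1 −0.15. Leaving out 1 library gave C1qa −0.21 to 0.067, C1qc −0.27 to 0.029 and C5ar1 −0.27 to 0.093. For WT LPS against WT medium, library total alone gave C1qa −0.47 and C1qb −0.41, the replicate block C1qa −0.0062, and leaving out 1 library C1qa −0.18 to 0.37, C1qb −0.10 to 0.29 and C1qc −0.29 to 0.026. For KO-labelled LPS against KO-labelled medium, library total alone gave C3 0.035, only the groups compared Cfp −0.0013, the Xist term Cfp −0.063, and leaving out 1 library C1qb −0.089 to 0.25, C5ar1 −0.19 to 0.57 and Cfp −0.18 to 0.25. Cfp was −0.022 to 0.42 for KO-labelled LPS against WT LPS. In the interaction, library total alone gave C1qb 1.24 (called) and Cfp 0.56, no filter C1qb 0.066, and leaving out 1 library C1qb −0.26 to 0.18. The cause was not tested.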
